A study of Homo sapiens with 8 samples.

Results

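The genes described here are 50 interferon-stimulated effector genes, whose products carry out the antiviral part of the interferon response. They were listed by name for their known role, with earlier results of these data known, and where a gene had several probe sets, the brightest over the 8 arrays on average stood for it. Of the 50, 49 were measured, out of 19775 genes on the arrays, and TDRD7 had no probe set named in the annotation used here. RNA came from H460, a human line of non-small-cell lung cancer grown in RPMI with fetal bovine serum, and was biotin-labelled and hybridised to Affymetrix arrays. The 4 resistant arrays (H460R) hold cells with acquired resistance to TRAIL, and the 4 sensitive arrays (H460S) hold H460 cells named as the control; a daily TRAIL treatment of 6 months is recorded in the same words for all 8 samples, and is taken here to describe the resistant cells. TRAIL, a relative of tumour necrosis factor, can start apoptosis through death receptors. The labels state neither the dose, nor whether the resistant cells were a pool or a clone, nor how long before extraction TRAIL was last given. Whether the sensitive cells were kept in culture for the same time is also not stated, so resistance, TRAIL exposure and culture time cannot be told apart.

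Interferons are secreted proteins that bind receptors on the cell surface. The receptors' JAK kinases phosphorylate STAT proteins, and a complex of STATs with IRF9 binds the interferon-stimulated response element in the promoters of genes such as those described here. The products act against viruses by binding or degrading foreign RNA, blocking entry or release of particles, limiting nucleotides or tagging proteins with the ubiquitin-like protein ISG15. Many cancer cell lines keep some of these genes active without added interferon.

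Most of the measured genes that changed were lower in resistant cells. Of the 49, 24 fell, 5 rose and 20 did not pass the test, which was limma's moderated test over all 19775 genes with Benjamini-Hochberg adjustment at 0.05. Of all genes tested, 30.3% passed, 15.6% fell and 14.7% rose, while of these genes 49% fell and 10.2% rose. The 5 rises were 3 without resistant array 2 or with the replicate number as a block. They were also 3 without probe sets that carry a suffix for possible cross-hybridisation. There IFI16 had no probe set left and PARP9 did not pass. Changes are differences of mean log2(signal + 1), resistant less sensitive, and the median change was -0.38 for these genes and -0.03 for all genes. Relative to the mean of the sensitive arrays, the median over the 49 genes was -0.35, -0.27, -0.39 and -0.47 on the resistant arrays, against 0.04, -0.02, -0.02 and -0.01 on the sensitive arrays. All 4 resistant arrays lay below all 4 sensitive arrays for 27 of the genes (17.4% of all genes) and above them for 5 (16.5% of all genes). Of the 24 falls, 9 were at least 2-fold, which 4.64% of all genes reached, and of the 5 rises 0 were, against 3.12% of all genes. The 22 measured genes of the IFIT, OAS, IFITM, ISG15, GBP and TRIM groups held 14 falls and 0 rises (median -0.45), and the 27 others held 10 falls and 5 rises (median -0.22). Whether fewer cells expressed a gene or each cell held less of its RNA cannot be told apart in these bulk samples. The plot of levels per array shows every measured gene.

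**Figure D1:**
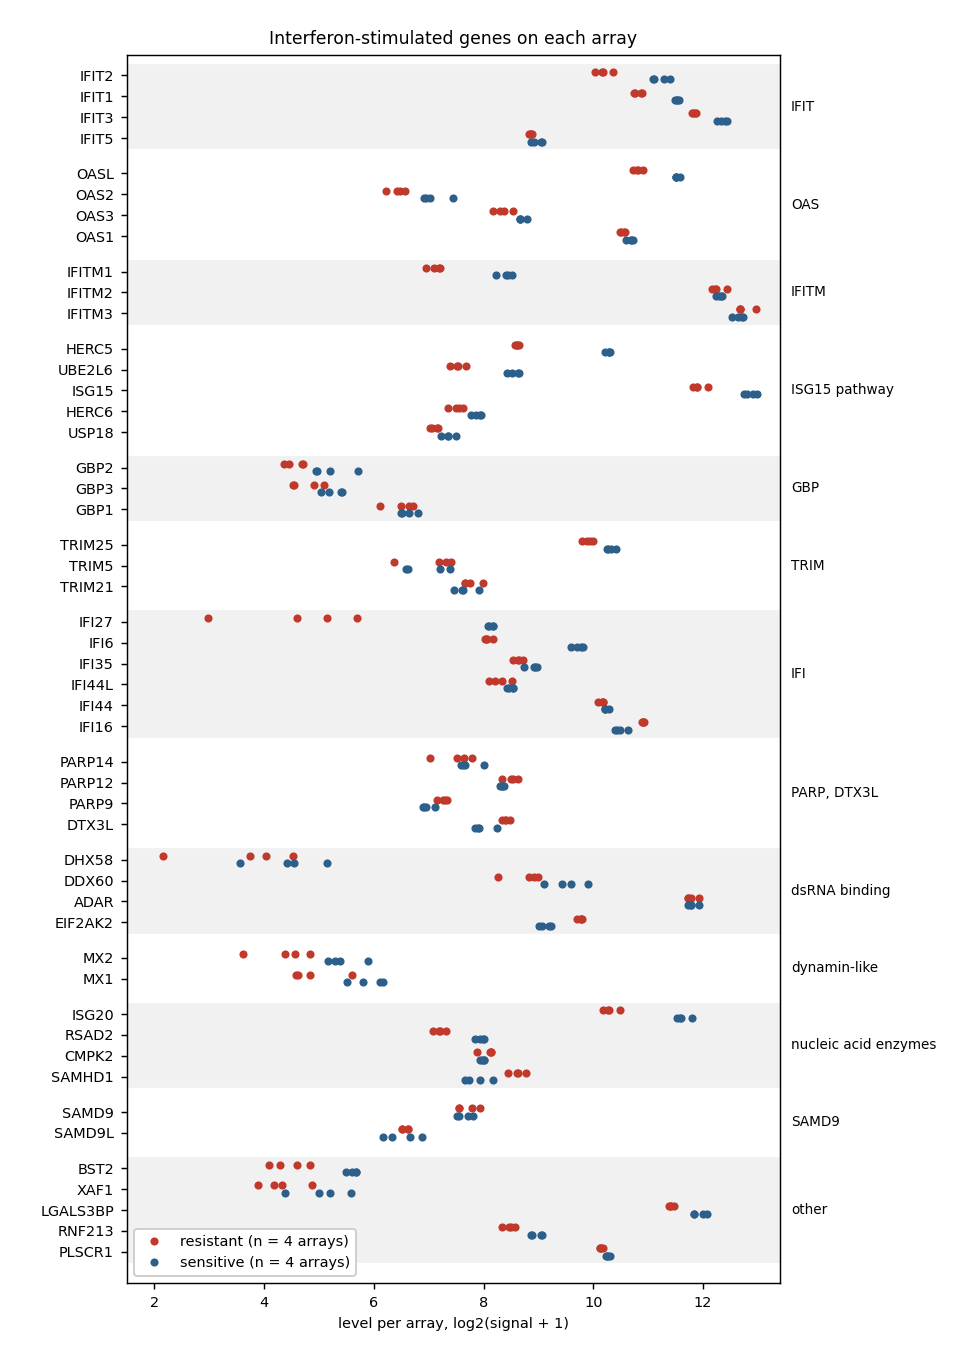
Level of each of the 49 measured genes on every array (horizontal axis, log2(signal + 1)), with 4 resistant arrays (red, upper points of a row) and 4 sensitive arrays (blue, lower points), grouped by family or role. The resistant points of HERC5, IFI6, ISG20 and ISG15 lie clear of the sensitive points on the low side, and those of EIF2AK2, SAMHD1 and IFI16 on the high side.

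Facts of the whole arrays bear on all of these values. The median signal was 32.6 to 34.5 on resistant and 33.4 to 37.5 on sensitive arrays. Each array correlated with the others of its group at a mean r of 0.959 to 0.965 (resistant) and 0.955 to 0.958 (sensitive), and with the other group at 0.937 to 0.942. The difference between the 3′ and 5′ control probe sets of ACTB, which moves with RNA degradation and labelling, was 0.10 to 0.13 on resistant and 0.23 on sensitive arrays (exact two-sided permutation test, p = 0.0286, the smallest that 4 against 4 arrays allow), and that of GAPDH was -0.22 to -0.06 on resistant and -0.15 to -0.13 on sensitive arrays (p = 0.686). The part of the ACTB difference in the results was not tested. The epithelial keratin genes KRT8 and KRT18 had levels of 11.36 and 13.12 on resistant and 11.41 and 13.18 on sensitive arrays, and both differences missed the threshold, whereas the epithelial adhesion genes EPCAM and CDH1 had levels under 5 in both groups. Marker genes summed over a list gave signals of 13312 to 16023 on resistant and 16942 to 19731 on sensitive arrays for the 5 epithelial markers, among which KRT19 fell by 1.24. The sum for 4 of 6 leukocyte markers was 127 to 153 on resistant and 107 to 141 on sensitive arrays, and for 4 endothelial markers 60.2 to 116 on resistant and 84.5 to 113 on sensitive arrays. It was 1154 to 1264 on resistant and 1295 to 1442 on sensitive arrays for 5 fibroblast markers, mostly from COL3A1, while the dimmer LUM and PDGFRB fell, with changes of -3.27 ± 0.54 (adjusted p = 0.00337) and -1.12 ± 0.26 (adjusted p = 0.0148). For 3 markers of plasmacytoid dendritic cells it was 290 to 337 on resistant and 466 to 600 on sensitive arrays, mostly from TCF4, which fell by 0.78. None of the 4 leukocyte markers passed. The part of these markers in the results was not tested.

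Many of the promoters hold the letters of the interferon-stimulated response element. The core searched was GAAA, any 2 bases and GAAA again, on either strand, in RefSeq windows of 250 bases before to 50 after a start site (GRCh38.p14). It was present in 29 of 42 listed genes that had a window, or 69%, against 4.38% of all 27305 genes in the table, and in 34 of their 57 windows (59.6%), against 3.57% of all 35116 windows. The core was found in 14 of 18 genes that fell, in 3 of 5 that rose and in 12 of 18 that did not pass. The 29 genes with it had a median change of -0.34 and the 12 measured genes without it of -0.20. The 8 measured genes that had no window, of which 6 fell, had a median of -0.69. A second motif, TTC, any 3 bases and GAA, the core of a STAT site, which reads alike on both strands, was in 10 of the 42 genes (23.8%), against 9.38% of all genes. A match is a run of letters and does not show that a protein binds there. The stretches below come from 6 genes with large falls, 2 that rose and 2 that did not pass, and are shown because the same core stands in genes that moved differently. Each runs 5′ to 3′ on the strand of its gene and the capitals mark the core, which appears as TTTC, 2 bases and TTTC where it lies on the opposite strand. Cores that overlap merge into a longer run.
HERC5, chr4:88456982-88457066, plus strand: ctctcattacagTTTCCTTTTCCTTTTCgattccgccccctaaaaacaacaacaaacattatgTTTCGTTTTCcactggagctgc
IFI6, chr1:27672264-27672360, minus strand: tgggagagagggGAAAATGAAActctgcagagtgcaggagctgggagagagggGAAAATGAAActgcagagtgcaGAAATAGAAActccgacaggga
ISG20, chr15:88638935-88638968, plus strand: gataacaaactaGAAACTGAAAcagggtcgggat
IFITM1, chr11:313988-314043, plus strand: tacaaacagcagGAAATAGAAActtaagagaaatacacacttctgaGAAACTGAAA
BST2, chr19:17405733-17405772, minus strand: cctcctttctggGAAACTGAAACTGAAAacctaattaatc
ISG15, chr1:1013372-1013411, plus strand: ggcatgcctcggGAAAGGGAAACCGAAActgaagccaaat
EIF2AK2, chr2:37156977-37156998, minus strand: ggagtccaagggGAAAACGAAA
DTX3L, chr3:122564320-122564341, plus strand: ctccagggaagcGAAACTGAAA
IFITM3, chr11:320874-320924, minus strand: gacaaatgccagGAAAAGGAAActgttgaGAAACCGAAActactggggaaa
IFIT5, chr10:89414511-89414573, plus strand: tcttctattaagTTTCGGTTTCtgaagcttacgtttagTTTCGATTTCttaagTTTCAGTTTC
HERC5, IFI6 and IFIT5 each hold 3 cores in the stretch shown. The changes of these genes were -1.66, -1.65 and -0.11, and IFIT5 did not pass.

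The 5 genes listed for protein tagging by ISG15 all had lower mean levels in resistant cells. All 5 passed, with a median change of -0.95. ISG15, the ubiquitin-like modifier itself, had levels of 11.88, 11.88, 11.81 and 12.08 on the resistant arrays, against 12.75, 12.91, 12.79 and 12.99 on the sensitive arrays, and the groups did not overlap. It changed by -0.95 ± 0.09 (adjusted p = 0.000309), and its mean signal in resistant cells was 51.9% of that in sensitive cells. UBE2L6, the enzyme that passes ISG15 on to the ligase, had levels of 7.53, 7.39, 7.52 and 7.68 on the resistant arrays, against 8.62, 8.52, 8.42 and 8.64 on the sensitive arrays. Every resistant array was lower than every sensitive array, and the change was -1.01 ± 0.09 (adjusted p = 0.000212). HERC5, the main human ligase that attaches ISG15 to proteins, had levels of 8.61, 8.65, 8.61 and 8.58 on the resistant arrays, against 10.21, 10.29, 10.28 and 10.30 on the sensitive arrays. The groups lay far apart against the small spread within each, with a change of -1.66 ± 0.06 (adjusted p = 6.70e-06) and a mean signal of 31.6% of the sensitive one. HERC6, a neighbour of HERC5 whose product attaches ISG15 in mice, changed less, by -0.38 ± 0.08 (adjusted p = 0.0115). USP18, the protease that removes ISG15 and also damps interferon receptor signalling, changed by -0.26 ± 0.08 (adjusted p = 0.0461). The USP18 call was kept in only 4 of 18 alternatives. It was lost when any 1 array but sensitive array 2 was left out (changes of -0.28 to -0.22, adjusted p of 0.0691 to 0.119). Quantile normalization (-0.20, adjusted p = 0.102), median centring (-0.19, adjusted p = 0.231) and the replicate number as a block (-0.26, adjusted p = 0.146) were among the others that lost it. Median centring (-0.31, adjusted p = 0.0702), the mean of its probe sets (-0.74, adjusted p = 0.192) and the replicate block (-0.38, adjusted p = 0.0715) each left HERC6 uncalled.

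**Figure D2:**
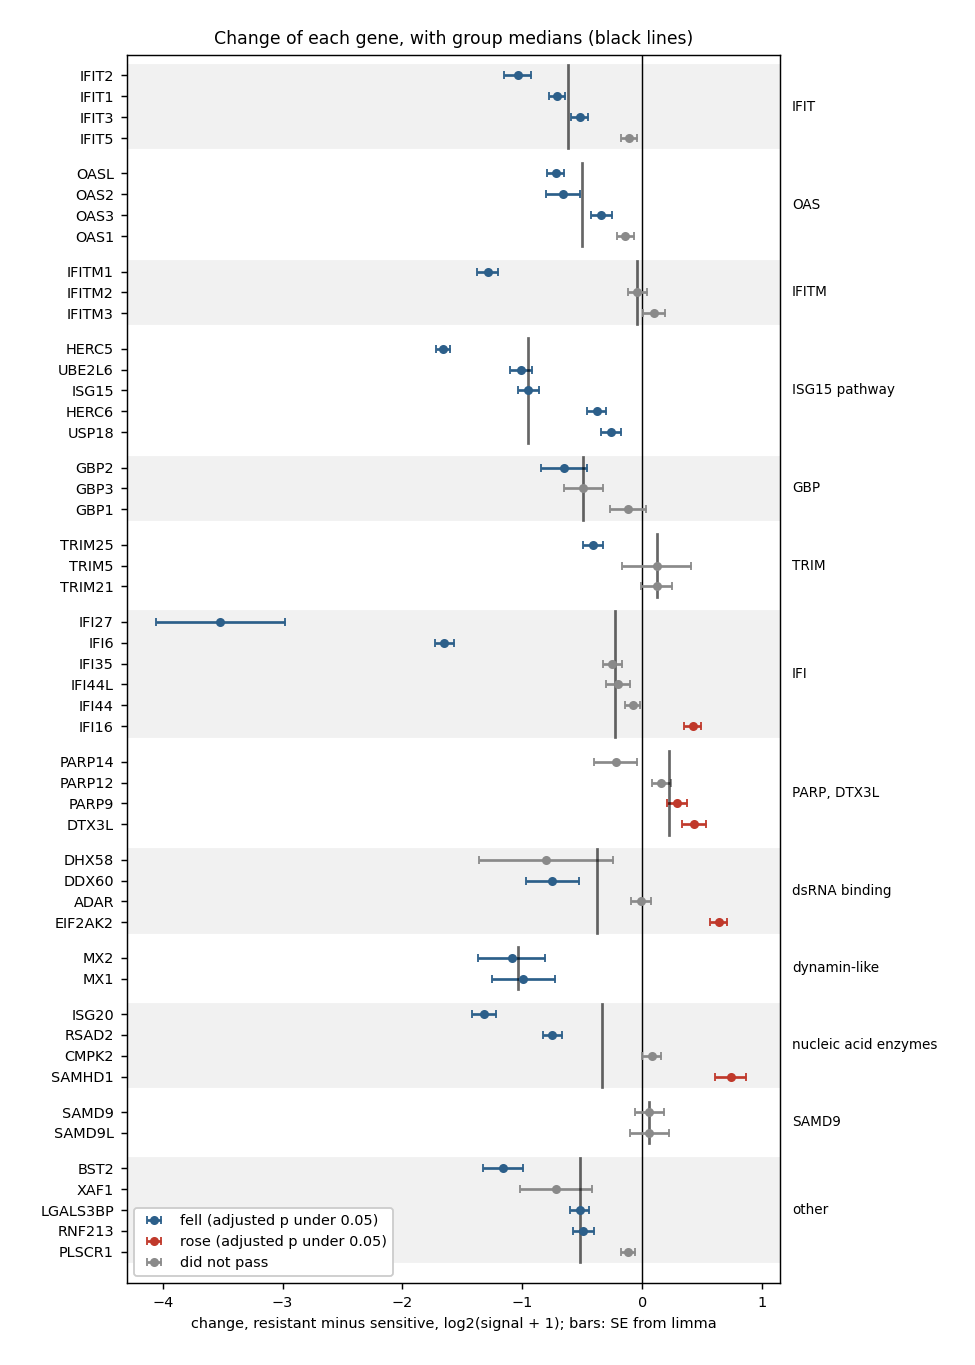
Change of each gene, resistant minus sensitive, in log2(signal + 1) (horizontal axis), with the standard error from limma (4 resistant and 4 sensitive arrays), coloured by whether it fell, rose or did not pass, and with a black line at each group's median. The ISG15 group lies at a median of -0.95, the IFIT group at -0.62, the OAS group at -0.50 and the PARP group at 0.23.

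The IFIT genes encode proteins that bind RNA ends foreign to the cell and hinder translation of such RNA. Of the 4, 3 fell and the fourth, IFIT5, did not pass, with a median change of -0.62. IFIT2 had levels of 10.17, 10.15, 10.35 and 10.03 on the resistant arrays, against 11.08, 11.40, 11.10 and 11.29 on the sensitive arrays. The groups did not overlap, and the change was -1.04 ± 0.11 (adjusted p = 0.000404). IFIT1 had levels of 10.86, 10.89, 10.74 and 10.75 on the resistant arrays, against 11.48, 11.52, 11.52 and 11.56 on the sensitive arrays, a change of -0.71 ± 0.07 (adjusted p = 0.000279). IFIT3, which binds and stabilises IFIT1, had levels of 11.82, 11.86, 11.87 and 11.79 on the resistant arrays, against 12.25, 12.43, 12.40 and 12.32 on the sensitive arrays, a change of -0.52 ± 0.07 (adjusted p = 0.00132). IFIT5 had 8.86 ± 0.02 on resistant and 8.97 ± 0.10 on sensitive arrays (SD, n = 4 each), and its change was -0.11 ± 0.07 (adjusted p = 0.319). The level of IFIT2 relative to IFIT5 on the same array was lower by 0.93 in resistant cells, and that of IFIT1 relative to IFIT5 by 0.60. Such differences within an array were computed for 28 pairs of related genes, and the smallest p that the exact two-sided permutation test allows, 0.0286, came to 0.0571 after Benjamini-Hochberg adjustment over the 28, so no pair passed. These 2 pairs reached 0.0286.

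The OAS genes encode synthetases that answer double-stranded RNA with short adenylate chains, which activate the nuclease RNase L, except OASL, which lacks that activity and aids RNA sensing by RIG-I. Of the 4, 3 fell, with a median change of -0.50 that was -0.28 with the mean of all probe sets. OASL had levels of 10.81, 10.79, 10.72 and 10.90 on the resistant arrays, against 11.50, 11.57, 11.51 and 11.51 on the sensitive arrays. The sensitive arrays were almost level with each other and all above the resistant ones, and the change was -0.72 ± 0.07 (adjusted p = 0.000273). OAS2 had levels of 6.56, 6.22, 6.48 and 6.43 on the resistant arrays, against 7.03, 6.96, 7.45 and 6.91 on the sensitive arrays, without overlap, and changed by -0.66 ± 0.14 (adjusted p = 0.0108). OAS3 changed by -0.34 ± 0.09 (adjusted p = 0.0262), with 8.35 ± 0.15 on resistant and 8.70 ± 0.06 on sensitive arrays (SD, n = 4 each). OAS1 did not pass at -0.14 ± 0.07 (adjusted p = 0.153), although its highest resistant level, 10.58, was just under its lowest sensitive level, 10.59. The OAS3 call was lost without resistant array 2 or 3 or any 1 of the sensitive arrays (changes of -0.36 to -0.31, adjusted p of 0.0526 to 0.0694). It was also lost after median centring (-0.27, adjusted p = 0.0971), with the mean of its probe sets (0.47, adjusted p = 0.271) or with the replicate number as a block (-0.34, adjusted p = 0.0595).

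The IFITM genes encode small membrane proteins that keep virus particles from fusing with the cell. Of the 3, IFITM1 fell and the other two did not pass, with a median change of -0.04. IFITM1, which acts mainly at the cell surface, had levels of 7.21, 7.10, 7.18 and 6.96 on the resistant arrays, against 8.52, 8.23, 8.44 and 8.40 on the sensitive arrays. It changed by -1.29 ± 0.09 (adjusted p = 9.67e-05), to 40.8% of the sensitive signal. IFITM2 and IFITM3, which act mainly in endosomes, did not pass, at -0.04 ± 0.08 (adjusted p = 0.781) and 0.10 ± 0.09 (adjusted p = 0.507). IFITM3 had levels of 12.67, 12.68, 12.67 and 12.96 on the resistant arrays, against 12.71, 12.53, 12.63 and 12.72 on the sensitive arrays, so the groups overlapped. These sequences are alike, and the probe sets used for all 3 carry a suffix for possible cross-hybridisation, with none free of it, so their values are uncertain. A probe set that the annotation gives to both IFITM2 and IFITM1 and that was not used for either had levels of 7.42, 7.52, 7.67 and 7.70 on resistant arrays, against 8.81, 8.54, 8.51 and 8.66 on sensitive arrays, a change of -1.05 ± 0.12 (adjusted p = 0.001 over all probe sets). IFITM1 relative to IFITM3 on the same array was lower by 1.39 in resistant cells (exact permutation p = 0.0286, adjusted 0.0571 over the 28 pairs). After median centring the IFITM2 value was 0.034.

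The GBP genes encode large GTPases that coat the compartments of intracellular pathogens, and GBP2 and GBP3 were dim here. Of the 3, GBP2 fell and the others did not pass, with a median change of -0.49 that was -0.31 over the genes with a mean level of at least 5. GBP2 had levels of 4.71, 4.70, 4.36 and 4.46 on the resistant arrays, against 5.21, 5.72, 4.97 and 4.95 on the sensitive arrays, a change of -0.65 ± 0.19 (adjusted p = 0.0378). GBP3 had a change of -0.49 ± 0.16 (adjusted p = 0.0608) and GBP1 of -0.12 ± 0.15 (adjusted p = 0.614), and neither passed. The GBP2 call was lost without any 1 of the 4 resistant arrays or without sensitive array 1 (changes of -0.70 to -0.59, adjusted p of 0.0609 to 0.097). It was also lost with the mean of its probe sets (-0.37, adjusted p = 0.464), a variance trend (adjusted p = 0.104), the GAPDH covariate (adjusted p = 0.0582) and median centring (-0.58, adjusted p = 0.0504). GBP3 passed without resistant array 3 (-0.60, adjusted p = 0.0329) and over genes with a mean level of at least 5 (adjusted p = 0.0217), but in no other alternative. GBP1 lay at 0.004 without resistant array 3. Of the TRIM genes, TRIM25, a ubiquitin ligase that activates RIG-I, fell and the others did not pass, with a median of 0.12. That median was -0.15 without suffixed probe sets, where TRIM5 was absent because it has no other kind. The levels of TRIM25 were 9.94, 9.88, 9.80 and 9.99 on the resistant arrays, against 10.41, 10.26, 10.32 and 10.25 on the sensitive arrays. It changed by -0.41 ± 0.08 (adjusted p = 0.00546). TRIM5, which restricts retroviral capsids, and TRIM21, a receptor for antibody inside the cell, had changes of 0.12 ± 0.29 (adjusted p = 0.808) and 0.12 ± 0.13 (adjusted p = 0.56) and did not pass. TRIM5 spread widely within both groups, with levels of 7.40, 7.32, 7.19 and 6.36 on the resistant arrays, against 6.59, 7.20, 6.62 and 7.38 on the sensitive arrays.

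The genes named IFI, for interferon-inducible, hold the largest fall of the 49. Of the 6, 2 fell, 1 rose and 3 did not pass, with a median change of -0.23 that was -0.15 after median centring. Without suffixed probe sets it was -1.19, but IFI16 and IFI35 have no other kind and are absent from that value. IFI27, a small hydrophobic protein of mitochondria, had levels of 5.15, 2.98, 4.60 and 5.69 on the resistant arrays, against 8.17, 8.09, 8.17 and 8.08 on the sensitive arrays. The sensitive arrays were almost level, while the resistant arrays ranged from 2.98 to 5.69, around the level of the median probe set, 5.01. The change was -3.52 ± 0.54 (adjusted p = 0.00228), with a mean signal of 28.8 in resistant and 279 in sensitive cells, and it lay between -3.89 and -2.98 when each array was left out. IFI6, a relative of IFI27, had levels of 8.02, 8.05, 8.06 and 8.17 on the resistant arrays, against 9.82, 9.77, 9.71 and 9.60 on the sensitive arrays. The resistant arrays lay close together and far below the sensitive ones, a change of -1.65 ± 0.08 (adjusted p = 1.50e-05). IFI16, a sensor of DNA, rose by 0.42 ± 0.07 (adjusted p = 0.00428), with levels of 10.90, 10.91, 10.89 and 10.92 on the resistant arrays, against 10.48, 10.43, 10.63 and 10.40 on the sensitive arrays. Its 3 probe sets all carry a suffix, and the other two had changes of 0.57 ± 0.15 (adjusted p = 0.0367 over all probe sets) and 0.05 ± 0.09 (adjusted p = 0.774). IFI44 had a change of -0.08 ± 0.06 (adjusted p = 0.383) on its brightest probe set and of -0.74 ± 0.10 (adjusted p = 0.00222 over all probe sets) on the other. IFI44L and IFI35 did not pass, at -0.20 ± 0.10 (adjusted p = 0.201) and -0.25 ± 0.08 (adjusted p = 0.0507). IFI35 passed without sensitive array 3 (-0.30, adjusted p = 0.0347) and with a pseudocount of 16 (adjusted p = 0.043). It also passed over genes with a mean level of at least 5 (adjusted p = 0.0157), with a variance trend (adjusted p = 0.018) and with array weights (adjusted p = 0.0379). In the other alternatives that could be run, IFI35 did not pass.

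Of the 4 genes that bind or unwind double-stranded RNA, 1 fell, 1 rose and 2 did not pass, with a median change of -0.38 that was -0.15 without resistant array 1 and -0.01 over genes with a mean level of at least 5. EIF2AK2, the kinase PKR that stops translation when it meets such RNA, had levels of 9.77, 9.71, 9.80 and 9.78 on the resistant arrays, against 9.19, 9.07, 9.22 and 9.01 on the sensitive arrays. It rose by 0.64 ± 0.07 (adjusted p = 0.00067), with a mean signal 155% of the sensitive one. ADAR, an RNA editing enzyme and among the brightest of the genes, did not pass at -0.01 ± 0.08 (adjusted p = 0.939), with 11.79 ± 0.10 on resistant and 11.80 ± 0.08 on sensitive arrays (SD, n = 4 each), and its sign turned with the scaling (0.062 after median centring). DDX60, a helicase, had levels of 8.99, 8.92, 8.83 and 8.27 on the resistant arrays, against 9.10, 9.90, 9.42 and 9.59 on the sensitive arrays, a change of -0.75 ± 0.22 (adjusted p = 0.0398). Its call was lost when any array but sensitive array 1 was left out (changes of -0.83 to -0.58, adjusted p of 0.0535 to 0.0911). The call was also lost after median centring (-0.67, adjusted p = 0.0805) and with the replicate number as a block (-0.75, adjusted p = 0.0973). DHX58, a helicase related to RIG-I, lay low at 3.61 ± 1.02 on resistant and 4.42 ± 0.65 on sensitive arrays (SD, n = 4 each) and did not pass.

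Of the 4 enzymes that act on nucleotides and nucleic acids, 2 fell, 1 rose and 1 did not pass, with a median change of -0.33. ISG20, an exonuclease that degrades RNA, had levels of 10.27, 10.18, 10.28 and 10.48 on the resistant arrays, against 11.80, 11.53, 11.58 and 11.59 on the sensitive arrays. The highest resistant array was far below the lowest sensitive array, a change of -1.32 ± 0.10 (adjusted p = 9.86e-05). RSAD2, or viperin, which makes a chain-terminating nucleotide, had levels of 7.31, 7.21, 7.18 and 7.07 on the resistant arrays, against 7.93, 7.84, 7.99 and 8.0 on the sensitive arrays, a change of -0.75 ± 0.08 (adjusted p = 0.000465). CMPK2, the nucleotide kinase whose gene is the neighbour of RSAD2, had a change of 0.08 ± 0.08 (adjusted p = 0.52) and did not pass. SAMHD1, which breaks down the nucleotides needed for DNA synthesis, had levels of 8.62, 8.44, 8.61 and 8.77 on the resistant arrays, against 7.67, 8.17, 7.93 and 7.73 on the sensitive arrays. It rose by 0.74 ± 0.13 (adjusted p = 0.00501), the largest rise among the genes measured. Its 6 probe sets had changes of 0.47 to 1.17, and 4 of them passed.

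The dynamin-like GTPases MX1 and MX2, which trap viral nucleocapsids, were dim in both groups. MX1 had levels of 5.61, 4.62, 4.58 and 4.83 on the resistant arrays, against 5.80, 6.17, 6.11 and 5.51 on the sensitive arrays, and MX2 of 3.61, 4.38, 4.56 and 4.84 on the resistant arrays, against 5.17, 5.89, 5.39 and 5.30 on the sensitive arrays. Both fell, with changes of -0.99 ± 0.26 (adjusted p = 0.027) and -1.09 ± 0.28 (adjusted p = 0.0245), and the MX1 groups overlapped, since resistant array 1 lay above sensitive array 4. MX1 did not pass without resistant array 2, 3 or 4 or sensitive array 1, 2 or 3 (changes of -1.02 to -0.88, adjusted p of 0.0527 to 0.0718). Nor did MX1 pass with the replicate number as a block (-0.99, adjusted p = 0.0865). MX2 did not pass without resistant array 2 or sensitive array 2 or 3 (changes of -1.11 to -0.94, adjusted p of 0.0546 to 0.0597). BST2, or tetherin, which holds budding virus at the membrane, had levels of 4.29, 4.09, 4.83 and 4.60 on the resistant arrays, against 5.68, 5.67, 5.60 and 5.49 on the sensitive arrays. It fell, with a change of -1.16 ± 0.17 (adjusted p = 0.00169), and was dim in both groups. LGALS3BP, a secreted glycoprotein that binds galectins, was bright and had levels of 11.40, 11.41, 11.38 and 11.46 on the resistant arrays, against 12.07, 11.84, 11.84 and 11.99 on the sensitive arrays, a change of -0.52 ± 0.08 (adjusted p = 0.0021). RNF213, a very large ubiquitin ligase, changed by -0.49 ± 0.09 (adjusted p = 0.00442) on a probe set with a suffix. It did not pass with the mean of its 8 probe sets (-0.24, adjusted p = 0.133) or on its brightest probe set without a suffix (-0.26, adjusted p = 0.198). Its other probe sets without a suffix had changes of -0.80 to 1.27, of which -0.80 and -0.66 passed over all probe sets. XAF1, which opposes the caspase inhibitor XIAP, and PLSCR1, a phospholipid scramblase, did not pass, at -0.72 ± 0.30 (adjusted p = 0.121) and -0.12 ± 0.06 (adjusted p = 0.185). XAF1 passed only without sensitive array 3 (-0.94, adjusted p = 0.0434). PLSCR1 turned to 0.30 with the mean of its probe sets.

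Of the 3 genes of the ADP-ribosyl transferase family and their partner DTX3L, 2 rose and 2 did not pass, with a median change of 0.23. Without suffixed probe sets, where PARP12 was absent, the median was 0.15. DTX3L, a ubiquitin ligase, had levels of 8.33, 8.49, 8.41 and 8.39 on the resistant arrays, against 7.92, 7.85, 7.90 and 8.24 on the sensitive arrays, a rise of 0.43 ± 0.10 (adjusted p = 0.017). PARP9, with which DTX3L forms a complex, had levels of 7.27, 7.30, 7.34 and 7.15 on the resistant arrays, against 7.11, 6.95, 6.90 and 6.91 on the sensitive arrays, a rise of 0.29 ± 0.08 (adjusted p = 0.0304). PARP12 and PARP14 had changes of 0.16 ± 0.08 (adjusted p = 0.208) and -0.22 ± 0.18 (adjusted p = 0.438) and did not pass, and PARP14 turned to 0.32 with the mean of its probe sets. The PARP9 call was lost without resistant array 1, 2 or 3 or sensitive array 2, 3 or 4 (changes of 0.27 to 0.29, adjusted p of 0.0709 to 0.0842), with the mean of its probe sets (0.22, adjusted p = 0.113) and on its probe set without a suffix (0.15, adjusted p = 0.464). The call of DTX3L was lost without resistant array 2 (0.40, adjusted p = 0.05). With the replicate number as a block neither PARP9 (0.29, adjusted p = 0.0928) nor DTX3L (0.43, adjusted p = 0.068) passed. SAMD9 and its neighbour SAMD9L, which curb poxviruses and cell growth, had changes of 0.06 ± 0.12 (adjusted p = 0.767) and 0.06 ± 0.16 (adjusted p = 0.815) and did not pass. SAMD9 turned to -0.016 without resistant array 2 and SAMD9L to -0.052 without sensitive array 4.

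Neighbouring genes gave the same call in some clusters and not in others. Among the measured genes, 14 pairs stand next to each other in the order of protein-coding genes, and in 8 of these both genes had the same call. PARP9 and DTX3L on chromosome 3 rose together. HERC6 and HERC5 on chromosome 4, MX2 and MX1 on chromosome 21, IFIT2 and IFIT3 on chromosome 10 and OAS3 and OAS2 on chromosome 12 fell together. In the remaining pairs with the same call, IFI44L and IFI44, GBP3 and GBP1, and SAMD9 and SAMD9L, neither gene passed. On chromosome 11, IFITM1 fell while its neighbours IFITM2 and IFITM3 did not pass. On chromosome 2, RSAD2 fell and CMPK2 did not pass. Likewise IFIT1, OAS3 and GBP2 fell, while their neighbours IFIT5, OAS1 and GBP1 did not pass. Only the order of the genes was used. Of the 49 genes, 49% fell and 10.2% rose, and how often genes that are not neighbours share a call was not computed.

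The relation of the change to the level of the gene depended on which level was taken. Over the 49 genes the change had a Pearson r of 0.17 and a Spearman rho of 0.13 with the mean log2 level over all 8 arrays, and over the 24 that fell 0.20 and 0.10. Over the 49, they were 0.32 and 0.24 with the resistant level and 0.02 and -0.02 with the sensitive level, and each of these levels enters the change itself. Without IFI27 they were 0.11 and 0.08 with the mean level, 0.23 and 0.20 with the resistant level and -0.01 and -0.02 with the sensitive level. Over all genes they were 0.16 and 0.18 with the resistant and -0.08 and -0.06 with the sensitive level. These values describe genes, which share the arrays and are not replicates. With a pseudocount of 16 the rho over the 49 was 0.01. Among 4 genes with a mean log2 level under 5, 2 fell and the median change was -0.76. Of 7 genes at 5 to 7, 4 fell (median -0.66). Of 20 at 7 to 9, 8 fell and 3 rose (median -0.21). Of 18 at 9 and above, 10 fell and 2 rose (median -0.46). In the same bins 3.76%, 18.3%, 27.1% and 24.7% of all genes fell, with medians of -0.08, -0.09, -0.02 and 0.04. What followed the level was the error: the median standard error was 0.29, 0.16, 0.09 and 0.07 from the dimmest to the brightest bin. Brightness also depends on the probes, so an order of levels between genes is not an order of transcript amounts.

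**Figure D3:**
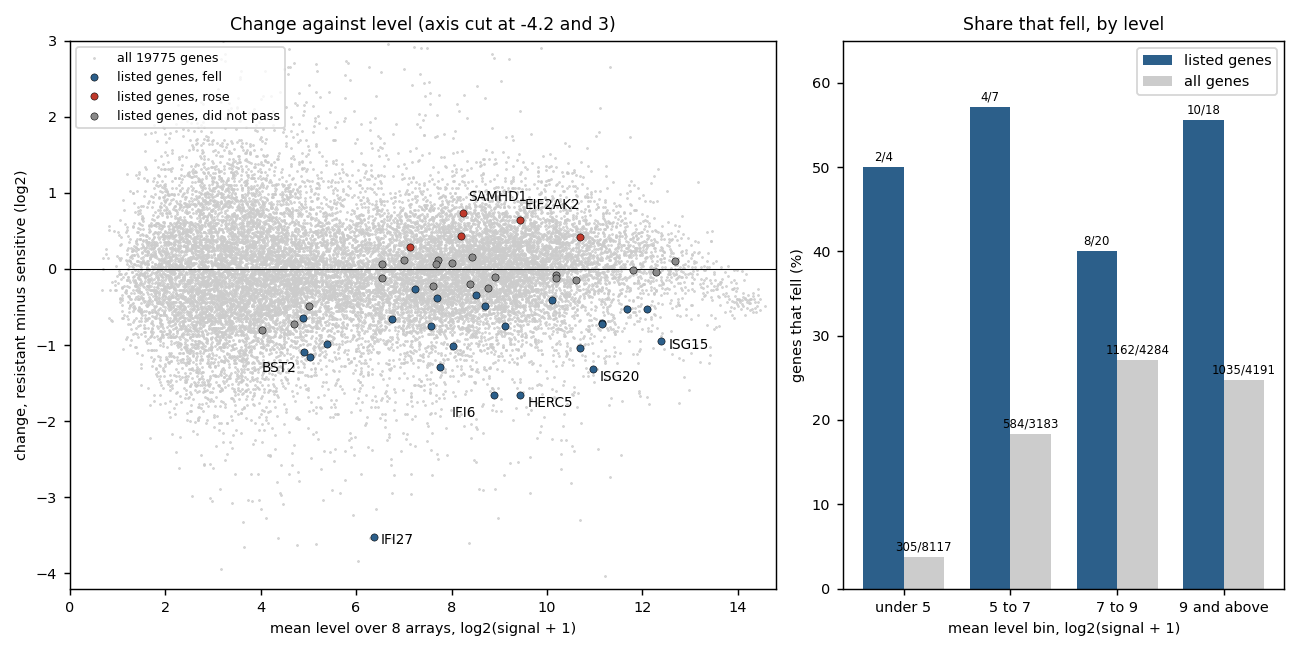
Left, change (resistant minus sensitive, log2) against the mean level over 8 arrays for all 19775 genes (grey) and the 49 listed genes (coloured by call), with the vertical axis limited as stated in the title. Right, percent of genes that fell in each level bin for the listed genes (blue) and all genes (grey), with counts above the bars. In the brightest bin 10 of 18 listed genes fell, against 24.7% of all genes.

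Several genes had more than the probe set used for them, and these mostly pointed the same way. The 49 genes had 92 probe sets, of which 28 fell and 9 rose over all 54613 probe sets, where 10.4% fell and 9.13% rose. For 25 genes there were 43 further probe sets, and 35 of them had the sign of the one used. Of 18 further probe sets of genes that fell, 7 fell and 0 rose. Of 10 further probe sets of genes that rose, 5 rose and 0 fell. Some calls made over genes were lost over all probe sets on the probe set used. These were the falls of DDX60 (adjusted p = 0.0587), GBP2 (0.0578), OAS3 (0.0605) and USP18 (0.108) and the rise of PARP9 (0.076). The second probe set of IFIT2 changed by -1.17 ± 0.09, that of ISG20 by -1.01 ± 0.09, that of IFIT3 by -0.72 ± 0.11, that of OASL by -0.62 ± 0.09 and that of RSAD2 by -0.58 ± 0.13. For 17 of the 49 genes the probe set used carries a suffix that marks possible hybridisation with other transcripts, and for 11 of these no other kind existed.

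**Figure D4:**
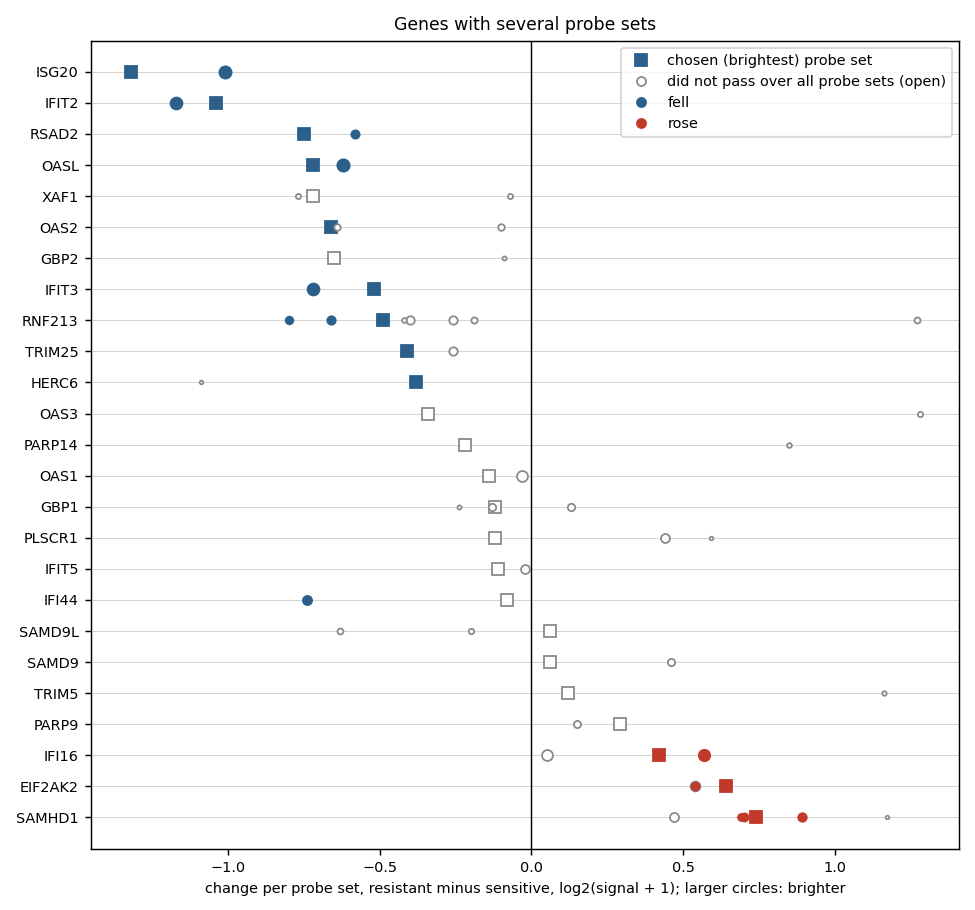
Change of each probe set (resistant minus sensitive, log2(signal + 1)) for the 25 genes with several, with squares for the probe set used and circles, larger when brighter, for the others, filled where the probe set passed over all probe sets. Both probe sets of ISG20, IFIT2, RSAD2, OASL and IFIT3 lie to the left of 0, and those of SAMHD1 to the right.

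Genes that make, sense or relay interferon were listed beside the effectors. Of 34 measured upstream genes, 12 fell (35.3%), 6 rose (17.6%) and 16 did not pass, with a median change of -0.09. Of all genes, 15.6% fell and 14.7% rose, so the share of rises was near that of all genes. IFNB1, interferon beta, had levels of 0.88, 0.89, 1.32 and 1.76 on the resistant arrays, against 4.96, 4.91, 5.12 and 5.61 on the sensitive arrays. The sensitive levels were near that of the median probe set, 5.01, and the resistant ones far below it, with mean signals of 1.4 on resistant and 35.2 on sensitive arrays. It passed, but the size of its change depends on the pseudocount: -3.94 ± 0.25 (adjusted p = 4.96e-05) with 1 and -1.54 (adjusted p = 3.18e-05) with 16. The interferon lambda genes IFNL1 and IFNL2, which signal through IFNLR1 and IL10RB, changed by -1.96 ± 0.37 (adjusted p = 0.00609) and -1.39 ± 0.34 (adjusted p = 0.0193). With a pseudocount of 16 the IFNL2 value was -0.90 (adjusted p = 0.00836). The lambda genes are alike in sequence, so their probe sets are uncertain. IFNL1 had levels of 6.03, 5.91, 5.70 and 4.47 on the resistant arrays, against 7.90, 7.63, 7.08 and 7.33 on the sensitive arrays. The groups did not overlap. IFNLR1 itself fell, with a change of -1.45 ± 0.11 (adjusted p = 0.0001), while IFNAR1, a chain of the receptor for interferon alpha and beta, rose by 0.85 ± 0.16 (adjusted p = 0.00681). IFIH1, a sensor of double-stranded RNA, fell, with a change of -1.39 ± 0.14 (adjusted p = 0.000395), whereas STING1, the adaptor of DNA sensing, rose by 0.97 ± 0.14 (adjusted p = 0.00162).

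**Figure D5:**
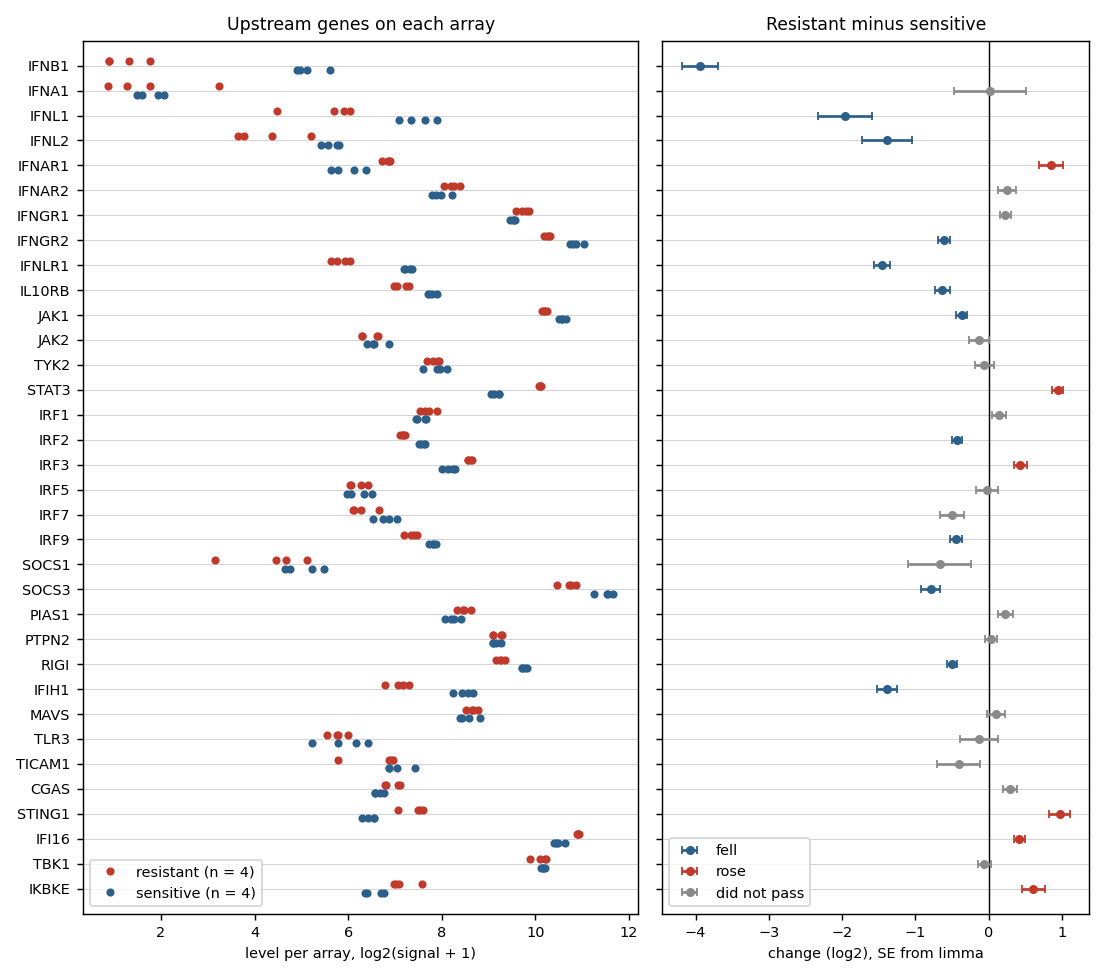
Left, level of each measured upstream gene on the 4 resistant (red, upper points) and 4 sensitive arrays (blue, lower points) in log2(signal + 1). Right, the change with its standard error from limma. IFNB1 lies between 0.88 and 1.76 on the resistant arrays and between 4.91 and 5.61 on the sensitive arrays.

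Among the transcription factors, IRF9, the DNA-binding partner of the STATs, fell, with a change of -0.45 ± 0.08 (adjusted p = 0.00541). IRF7, which amplifies interferon production, and IRF1 did not pass, at -0.50 ± 0.16 (adjusted p = 0.0547) and 0.14 ± 0.10 (adjusted p = 0.368). STAT3 rose by 0.94 ± 0.07 (adjusted p = 8.30e-05). IFI16 is counted both among these genes and among the effectors. Many genes of antigen presentation by MHC class I are also induced by interferon. Of 19 measured, 8 fell (42.1%), 5 rose (26.3%) and 6 did not pass, with a median change of -0.15. The shares over all genes were 15.6% and 14.7%. HLA-C and HLA-B, whose probe sets can share signal with other HLA genes, changed by -0.78 ± 0.07 (adjusted p = 0.000173) and -0.72 ± 0.06 (adjusted p = 0.000193), and NLRC5, a transactivator of these genes, rose by 0.72 ± 0.14 (adjusted p = 0.006). Both lists were compared with the effectors only by these counts and medians.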

How the data were processed

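Gene expression was measured on 8 Affymetrix arrays, 4 of resistant and 4 of sensitive H460 cells, grouped by the sample titles. The deposited intensity values of 54675 probe sets name RMA in the submitters' processing notes, with no version. They are on a linear scale, and the mean after removing 2% at each end is 200 on every array, so which steps were run is not settled. Depth has no meaning for arrays, and their number limits the precision. Separate cultures are not stated for the arrays of a group, so the spread behind each p-value may be technical.

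After removing 62 control probe sets, 41097 probe sets with 1 symbol (1801 had several and 11777 were not listed) gave 19775 genes, each by its brightest probe set. Of these probe sets, 41043 matched a RefSeq gene ID. Values were taken as log2(signal + 1), with a pseudocount of 1 and without renormalization. Limma 3.58.1 in R 4.3.3 (lmFit, eBayes) tested resistant minus sensitive over all genes, and separately over 54613 probe sets, with Benjamini-Hochberg adjustment at 0.05. Exact permutation tests used scipy 1.17.1 in Python 3.11.15. The fit was tested on simulated data. Errors with a change are limma standard errors.

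The listed genes, the other gene lists and the tests were chosen with earlier results of these data known. Any listed gene could be named, up to 8 called genes with the largest changes from each of the upstream and antigen lists, and IRF9, IRF1 and IRF7. TDRD7, 3 upstream genes, 2 antigen presentation genes and 2 leukocyte markers without a named probe set were not analysed here. Alternatives were another pseudocount, quantile normalization, median centring, a filter on low levels, a variance trend, array weights, the replicate number as a block, a GAPDH covariate, other choices of probe set and leaving out each array. The replicate numbers come from the titles, and same-numbered samples did not deviate together (correlations of -0.025, 0.005, 0.012 and -0.019).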

Additional observations from a re-analysis of the deposited data

Results flagged for a closer look

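In 7 of the 98 groups of 4 arrays examined for the 49 genes, 1 array stood apart from the other 3 by Dixon's test at the 95% level, which chance gives in about 1 group in 20. HERC5 had 10.21 on sensitive array 1, against 10.28 to 10.30 on the other sensitive arrays. OAS3 had 8.79 on sensitive array 1, against 8.66 to 8.67 on the others. IFI44 had 10.08 on resistant array 2, against 10.16 to 10.17 on the other resistant arrays, and 10.29 on sensitive array 1, against 10.21 to 10.22 on the other sensitive arrays. PARP14 had 8.01 on sensitive array 1, against 7.59 to 7.66 on the others. IFITM3 had 12.96 on resistant array 4, against 12.67 to 12.68 on the other resistant arrays. CMPK2 had 7.88 on resistant array 1, against 8.11 to 8.14 on the others. Sensitive array 1 held 4 of the 7.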

How the results depend on the processing

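Of the 29 called genes, 19 kept their call in every alternative that could be run for them, 16 lower and 3 higher. Genes lower in resistant cells numbered 18 to 21 when each array was left out (24 with all arrays) and 19 to 25 in the other alternatives, the lowest after median centring and with the replicate block. Genes higher numbered 3 to 5 when each array was left out, with 3 without resistant array 2, and 3 both with the replicate block and without suffixed probe sets. Genes with only suffixed probe sets, IFI16 among them, could not be called in the last of these. The replicate block, which rests only on shared numbers, left 4356 calls over all genes, against 5986 without it.

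Medians moved as follows. After median centring all listed genes had -0.31, IFIT -0.54, OAS -0.43, IFI -0.15, PARP and DTX3L 0.30, nucleic acid enzymes -0.26 and other genes -0.45. After quantile normalization nucleic acid enzymes had -0.29. With a pseudocount of 16 GBP had -0.33, double-stranded RNA binding -0.20, MX -0.72 and other genes -0.48, and with levels of at least 5 all listed genes had -0.26, GBP -0.31 and double-stranded RNA binding -0.01. With the mean of all probe sets OAS had -0.28, GBP -0.37, IFI -0.33 and nucleic acid enzymes -0.29. Without suffixed probe sets all listed genes had -0.50, IFIT -0.71, ISG15 -0.70, TRIM -0.15, IFI -1.19, PARP and DTX3L 0.15 and double-stranded RNA binding -0.08. The 11 genes that have only suffixed probe sets are absent there, so these medians rest on fewer genes than the main ones. When each array was left out, double-stranded RNA binding ranged from -0.40 to -0.15, with -0.15 without resistant array 1.

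Spearman's rho of change with level was 0.01 with a pseudocount of 16, 0.09 after quantile normalization, 0.0 with levels of at least 5, -0.03 with the mean of probe sets, -0.05 without suffixed ones and 0.09 to 0.17 when each array was left out. Reversed signs were OAS3 0.47, PARP14 0.32, SAMD9L -0.26 and PLSCR1 0.30 with the mean of probe sets, GBP1 0.13 and PLSCR1 0.59 without suffixed ones, IFITM2 0.034 and ADAR 0.062 after median centring, and ADAR 0.009 with the GAPDH covariate. Leaving out 1 array gave GBP1 values of -0.20 to 0.004, ADAR of -0.059 to 0.028, SAMD9 of -0.016 to 0.11 and SAMD9L of -0.052 to 0.18. The cause was not tested, and dim genes had the larger errors.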
